A study of Rattus norvegicus with 6 samples.

Results

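The genes described here are the glucocorticoid receptor, 1 enzyme that supplies its hormone and 7 classic targets, 9 of the 16499 gene symbols that were measured in cultured synovial fibroblast-like cells. They are Nr3c1, Hsd11b1, Fkbp5, Tsc22d3, Zbtb16, Errfi1, Sgk1, Klf9 and Ddit4, each represented by its most abundant transcript. They were selected on the pattern they show in these same 6 libraries, so their values and the counts of calls among them are a description, and no p-value is given for them.

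Glucocorticoids are adrenal steroid hormones, in the rat mainly corticosterone, that bind the glucocorticoid receptor in the cytoplasm, where heat shock proteins hold it ready for hormone. The loaded receptor moves to the nucleus, binds DNA and switches some genes on and others off, the latter including many genes of inflammation. In the synovium of arthritic joints the receptor is known as the target of the steroid drugs used against inflammation, and fibroblast-like cells there express both the receptor and the enzyme that regenerates active hormone.

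The cells were grown from the joints of female Wistar rats with collagen-induced arthritis, taken before any therapy, and cells of the same 2 rats were kept in 3 kinds of medium. The first held fetal bovine serum (FBS), the second serum of rats that got no treatment (MS-), and the third serum of rats after 18 days of mechanical stimulation with a needle (MS+), which the labels call acupuncture. Each serum has 2 libraries, 1 for each rat that gave cells. How many rats gave the serum added to these cultures is not stated in the sources used here, so no error below measures the spread between serum donors. Each SE comes from the spread between cells of rat 1 and rat 2, pooled over the 3 sera and moderated across transcripts by limma. The intervals given below cover counting error only. FBS also comes from another species than both other sera, and from fetal donors. Species, age, disease and treatment of the donors cannot be told apart there. The labels of the MS- group carry the word healthy in one field and arthritis in another, while the study takes this serum from animals with induced arthritis and without treatment, drawn ahead of therapy by its methods. The sera MS+ and MS- may thus differ in day of drawing and stage of disease too, which cannot be told apart from the stimulation.

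The libraries held 5463316 to 5991889 reads, and 3 reads, taken as the floor of detection, correspond to 0.491 to 0.551 CPM (read counts scaled to library size). Fibroblast markers were present: 11 of 13 reached 1 CPM in at least 1 library, with summed levels of 62860 to 88070 CPM, although decorin (Dcn) and lumican (Lum) stayed under 1 CPM in every library and the lubricin gene Prg4, a marker of the joint lining, measured 1.27 to 3.32 CPM. The macrophage markers Ptprc, Aif1, Itgam and Cd163, the lymphocyte markers Cd3e, Cd3d and Ms4a1, and the endothelial marker Cdh5 were at 0 in all 6 libraries. Of the same lists 3 of 8 macrophage markers reached 1 CPM in some library, Cd14 at 12.1 to 19.4 CPM throughout, Cd68 at up to 2.02 and Mrc1 at up to 1.26 CPM, as did the lymphocyte marker Cd2 (1.15 to 3.06 CPM) and the endothelial marker Tek (up to 1.47 CPM). Of the 6 muscle markers, the myosin gene Myh1 measured 19.6 to 47.6 CPM in cells of rat 1 and 88.3 to 271 CPM in cells of rat 2. Myh2 was also higher in cells of rat 2 in each serum. Acta1, the most abundant of them, went the other way in each serum, at 912 to 1200 CPM in rat 1 and 766 to 1026 CPM in rat 2. Ckm did so too, under 1 CPM, while Myod1 and Des kept no common order.

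Promoters are shown here because the receptor acts on its classic targets by binding to DNA. RefSeq windows of 250 bases before a transcript start (build GRCr8) were found for 7 of the 9 genes, 12 windows in all. They were searched on both strands for the receptor hexamer TGTTCT, for the core of the receptor palindrome ACANNNTGT and for the cAMP response element motif TGACG. The receptor hexamer was in 0 of the 12 windows, against 17.5% of 33469 windows of all genes. The palindrome core was in 1 (5.81% of all windows), and the cAMP motif in 3 (18.2% of all windows). The first 3 windows below carry the cAMP motif in capitals, on either strand. Counted from the start, its first base is at -75 and -65 in Tsc22d3, at -56 in Errfi1 and at -79 in Klf9.
Tsc22d3 (chrX:109010035-109010284, minus strand): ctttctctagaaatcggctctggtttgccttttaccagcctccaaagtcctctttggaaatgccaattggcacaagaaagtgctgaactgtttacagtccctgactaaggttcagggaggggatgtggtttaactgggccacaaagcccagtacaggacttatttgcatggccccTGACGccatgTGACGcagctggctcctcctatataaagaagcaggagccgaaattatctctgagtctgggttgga
Errfi1 (chr5:166606591-166606840, plus strand): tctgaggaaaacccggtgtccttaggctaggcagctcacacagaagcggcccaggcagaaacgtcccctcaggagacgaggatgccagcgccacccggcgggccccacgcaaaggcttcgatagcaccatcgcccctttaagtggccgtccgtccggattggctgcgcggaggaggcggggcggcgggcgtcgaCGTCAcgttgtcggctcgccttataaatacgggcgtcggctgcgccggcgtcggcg
Klf9 (chr1:230126396-230126645, plus strand): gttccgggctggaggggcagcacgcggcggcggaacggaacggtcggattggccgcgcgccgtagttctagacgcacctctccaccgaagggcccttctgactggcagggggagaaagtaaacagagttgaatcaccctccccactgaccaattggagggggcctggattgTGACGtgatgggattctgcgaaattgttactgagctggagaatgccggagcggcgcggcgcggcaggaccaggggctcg
The next window belongs to a start of Tsc22d3 farther upstream, and its capitals mark the palindrome core, whose first base is at -183 from that start.
Tsc22d3 (chrX:109065431-109065680, minus strand): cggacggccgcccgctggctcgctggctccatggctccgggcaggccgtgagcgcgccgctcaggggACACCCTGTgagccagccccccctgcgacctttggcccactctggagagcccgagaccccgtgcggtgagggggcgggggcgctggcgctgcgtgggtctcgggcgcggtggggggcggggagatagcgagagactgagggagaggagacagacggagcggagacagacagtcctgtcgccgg
The last one, of Fkbp5, held none of the 3 motifs and is shown for contrast, since Fkbp5 is among the genes with the largest differences between sera.
Fkbp5 (chr20:6543556-6543805, minus strand): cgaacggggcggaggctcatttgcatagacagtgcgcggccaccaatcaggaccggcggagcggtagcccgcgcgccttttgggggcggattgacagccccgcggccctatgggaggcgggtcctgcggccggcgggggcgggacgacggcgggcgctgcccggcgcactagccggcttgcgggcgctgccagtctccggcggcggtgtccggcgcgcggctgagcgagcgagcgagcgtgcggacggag
The distance from the first Tsc22d3 start to the end of the gene was 3624 bases, against 3620 bases for the counted transcript, and for Errfi1 it was 13283 against 13281 bases, so those windows belong to the transcripts counted. For Klf9 (24995 against 25428 bases), Fkbp5 (84624 against 85276 bases) and the upstream Tsc22d3 start (59020 against 3620 bases) the lengths did not match. A match to letters is no binding site, and enhancers outside these windows were not analysed here.

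The receptor itself was expressed at similar levels in the 3 sera, between 96.3 and 138 CPM. Nr3c1 (NM_012576, chromosome 18, 32371496 to 32459145 in build rn4, minus strand) measured 96.3 and 109 CPM in FBS, 109 and 138 CPM in MS- and 99.5 and 115 CPM in MS+, each time first in cells of rat 1 and then of rat 2. In each serum the cells of rat 2 held more of it than those of rat 1, and only MS- and FBS did not overlap. The difference between MS+ and MS- was -0.20 (SE 0.14) in log2(CPM + 1), the scale of all differences below, and that between MS- and FBS was 0.26 (SE 0.14). In bulk RNA a change in the number of cells of a kind and a change in RNA per cell cannot be told apart.

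Hsd11b1 encodes the enzyme that turns inactive 11-keto steroids back into active glucocorticoid inside the cell. It was lowest in FBS and higher in both rat sera. Hsd11b1 (NM_017080, chromosome 13, 109063493 to 109089468, minus strand) measured 11.5 and 12.8 CPM in FBS, 28.2 and 25.8 CPM in MS-, and 30.8 and 34.1 CPM in MS+. The FBS libraries lay under all 4 others, by a ratio of group means of 2.23 for MS- and 2.68 for MS+. Between MS+ and MS- the groups did not overlap either, but the difference was small, 0.12 in cells of rat 1 and 0.39 in cells of rat 2.

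**Figure D1:**
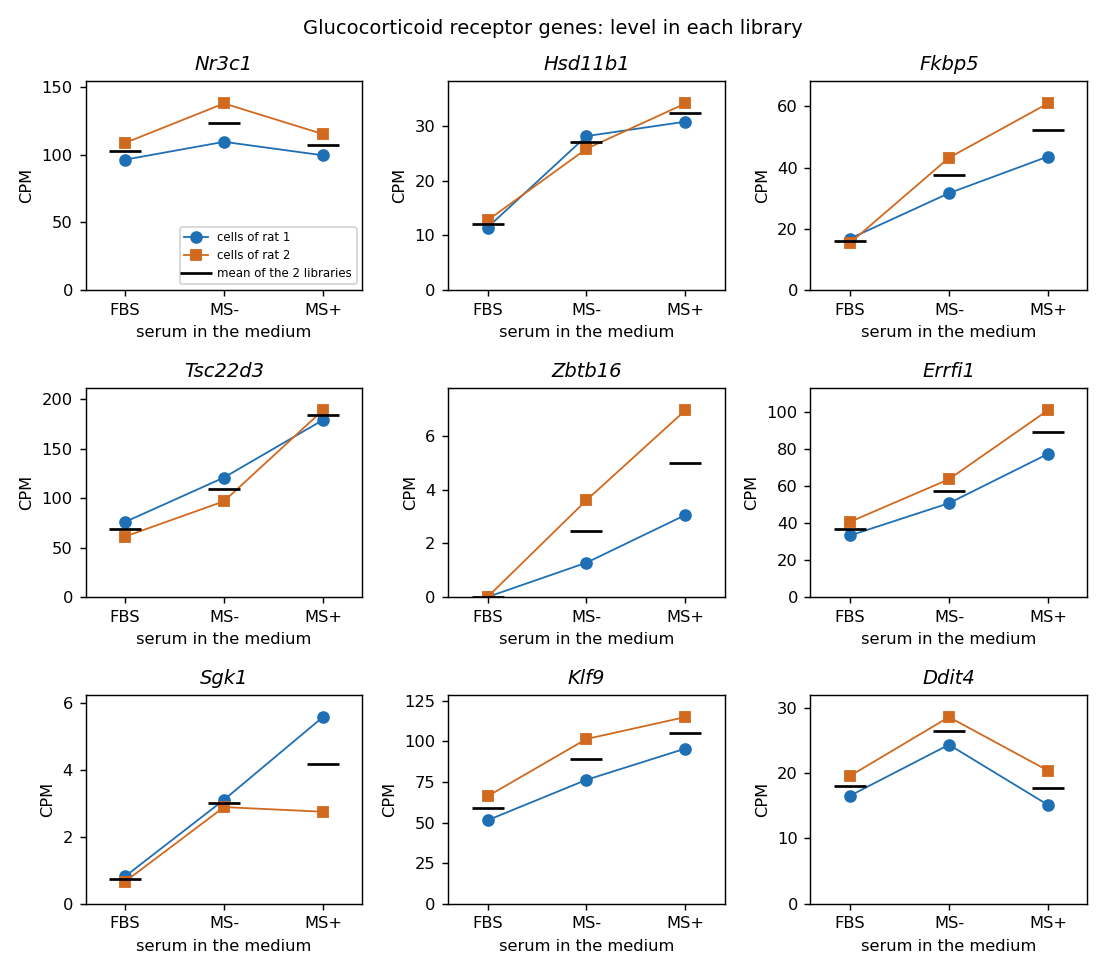
Level of each of the 9 genes in CPM (vertical axes, each starting at 0) in the 6 libraries, by the serum in the medium. Points are single libraries, lines join the cells of 1 rat, and bars are the means of 2 libraries; Nr3c1 is nearly flat, Ddit4 peaks in MS-, and the other 7 genes are lowest in FBS.

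Fkbp5 and Tsc22d3 are the targets most often read as a sign of receptor activity. Fkbp5 encodes a co-chaperone that lowers the affinity of the receptor for hormone, and Tsc22d3 encodes GILZ, a leucine zipper protein that dampens inflammatory signalling. Fkbp5 (NM_001012174, chromosome 20, 6637478 to 6722753, minus strand) measured 16.9 and 15.4 CPM in FBS, 31.6 and 43.2 CPM in MS-, and 43.6 and 60.9 CPM in MS+. Its level in MS+ was 3.24 times that in FBS and 1.40 times that in MS-. The 3 groups did not overlap, although the highest MS- library and the lowest MS+ library were close.

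Tsc22d3 (NM_031345, X chromosome, 128336408 to 128340027, minus strand) measured 76.0 and 61.2 CPM in FBS, 121 and 96.9 CPM in MS-, and 179 and 189 CPM in MS+. It showed the same order of sera without overlap, and of the 9 genes it was the one with the largest MS+ to MS- difference relative to its error, 0.76 (SE 0.15). That difference was 0.56 in cells of rat 1 and 0.96 in cells of rat 2. Against FBS it was 1.42 (SE 0.15) in MS+ and 0.66 (SE 0.15) in MS-.

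Zbtb16 and Sgk1 were low genes, so their values rest on few reads. Zbtb16 (NM_001013181, chromosome 8, 51931530 to 52094813, minus strand), which encodes the zinc finger transcription factor PLZF, had 0 reads in both FBS libraries, 7 and 20 reads in MS-, and 17 and 38 reads in MS+. Set against the floor of 3 reads in each FBS library, its mean was 4.95 times that floor in MS- and 10.2 times in MS+. These are ratios of means without an interval, so they are no lower bound for Zbtb16. In both rat sera the cells of rat 2 had more of it than those of rat 1 (3.62 against 1.28 CPM in MS-, 6.97 against 3.06 CPM in MS+), so that MS+ and MS- overlapped, while within each rat MS+ was the higher, by 0.83 and 0.79.

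Sgk1, the serum- and glucocorticoid-regulated kinase that acts on ion channels and cell survival (NM_019232, chromosome 1, 23501258 to 23506697, minus strand), had 5 and 4 reads in FBS, 17 and 16 in MS-, and 31 and 15 in MS+. The ratio to FBS was 4.05 in MS- (95% exact interval 1.89 to 9.62) and 5.64 in MS+ (2.73 to 13.1), intervals that cover counting error only. The cells of the 2 rats differed in direction between MS+ and MS-, by 0.68 and -0.05. The table holds 3 overlapping Sgk1 transcripts, and reads that fall on more than 1 of them were dropped in counting, so the level of the gene is understated. Their summed reads were 6 and 10 in FBS, 22 and 22 in MS-, and 34 and 20 in MS+.

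Errfi1, Klf9 and Ddit4 complete the targets. Errfi1 (NM_001014071, chromosome 5, 168012683 to 168025963, plus strand), a feedback inhibitor of the epidermal growth factor receptor, measured 33.2 and 40.6 CPM in FBS, 50.7 and 63.6 CPM in MS-, and 77.3 and 101 CPM in MS+. The groups did not overlap, and the difference between MS+ and MS- was alike in cells of both rats, 0.60 and 0.66.

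Klf9 (NM_057211, chromosome 1, 226420949 to 226446376, plus strand), a zinc finger transcription factor, measured 51.4 and 66.2 CPM in FBS, 76.3 and 101 CPM in MS-, and 95.5 and 115 CPM in MS+. Both rat sera lay above FBS. MS+ and MS- overlapped, and the difference between them was 0.32 in cells of rat 1 and 0.18 in cells of rat 2.

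Ddit4 (NM_080906, chromosome 20, 27252273 to 27254371, minus strand) encodes REDD1, an inhibitor of the growth kinase complex mTORC1. It measured 16.5 and 19.6 CPM in FBS, 24.3 and 28.6 CPM in MS-, and 15.1 and 20.4 CPM in MS+. It departed from the other targets, being highest in MS-, with MS+ below MS- by 0.65 in cells of rat 1 and by 0.47 in cells of rat 2. MS+ and FBS overlapped, and their difference was -0.03 (SE 0.19).

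MS+ against MS- asks how the cells differ between serum of stimulated animals and serum of untreated ones, which may also differ in the day of drawing. In the fit across 9820 transcripts that passed a filter on low values, with a Benjamini-Hochberg adjusted p under 0.05 in limma as the threshold for a call, 0 of the 9 genes were called, where 0.0204% of all transcripts (2) were. At an unadjusted p under 0.05 there were 1446 transcripts. The replicate numbers pair the libraries by rat, and with the rat as a block 3 of the 9 were called, Tsc22d3 and Errfi1 higher and Ddit4 lower, where 10.1% of all transcripts were. DESeq2 on recovered reads called 1, Tsc22d3, and 123 of all transcripts, while edgeR and limma-voom called 0 of the 9 genes and 3 and 4 of all transcripts. The 2 groups did not overlap for 5 of the 9 genes, against 45.8% of all transcripts. The median difference of the 9 genes was 0.31, that of all transcripts -0.01.

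Both remaining comparisons share the FBS libraries, so they are given side by side and not as separate evidence. In MS+ against FBS 7 of the 9 genes were called, all higher, which are all but Nr3c1 and Ddit4, where 9.61% of all transcripts were called. With the rat as a block the same 7 were called, against 28.2% of all transcripts. The groups did not overlap for those 7 genes, against 56.7% of all transcripts, and the median difference was 1.35 (all transcripts 0.00078). In MS- against FBS 2 of the 9 genes, Hsd11b1 and Fkbp5, were called against 4.81% of all transcripts. With the rat as a block 8 were called, all but Nr3c1, against 20.5%. The groups did not overlap for any of the 9 genes, against 51.6%, and the median difference was 0.66 (all transcripts 0.014). Zbtb16 and Sgk1 passed the filter only through the rat sera, where they are high, and had to differ from FBS. Of the 7 genes at 1 CPM or more in every library, 5 were called in MS+ and 2 in MS- against FBS. The genes were chosen from these contrasts, and nothing is read from these shares.

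Single libraries decided several of these calls. In MS+ against FBS the 7 calls became 2 without FBS replicate 1, 4 without FBS replicate 2, 6 without either MS- library, 0 without MS+ replicate 1 and 3 without MS+ replicate 2. In MS- against FBS the 2 calls became 0 without FBS replicate 1 or without either MS- library, and 1 without FBS replicate 2. When any 1 of the 6 libraries was left out, the differences in MS+ against FBS ranged from 1.28 to 1.42 for Hsd11b1, from 1.27 to 1.57 for Tsc22d3, from 1.38 to 1.85 for Fkbp5 and from 1.05 to 1.43 for Errfi1. They moved more for Zbtb16 (2.02 to 3.00), Sgk1 (1.11 to 1.92) and Klf9 (0.66 to 1.01), and remained above 0 for all 7.

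**Figure D2:**
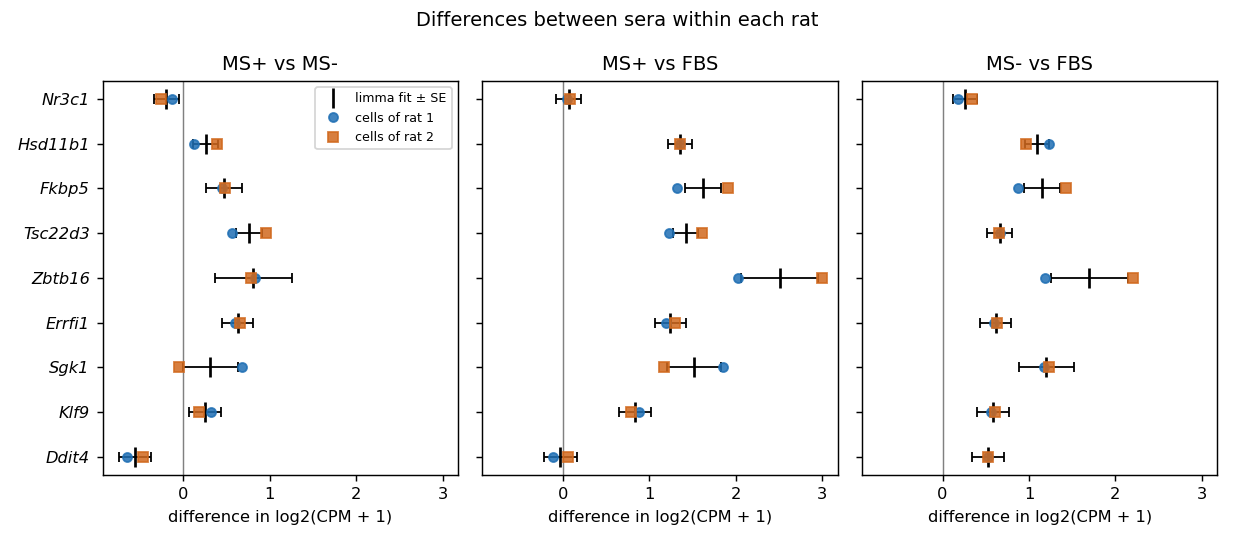
Difference between 2 sera in log2(CPM + 1) (horizontal axes) for the 9 genes, in cells of rat 1 (circles) and rat 2 (squares), with the limma estimate and its SE as bar and whiskers. In MS+ against MS- the cells of both rats lie on the same side of 0 for 8 of the 9 genes, the exception being Sgk1. In MS- against FBS all 9 lie above 0 in both rats. Among 64 tested genes of the pathway, not shown, both rats agreed in sign for 49 and 52 in these comparisons. The share over all transcripts was not counted.

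FBS below MS- below MS+ was the order in cells of both rats for 6 of the 9 genes, Hsd11b1, Fkbp5, Tsc22d3, Zbtb16, Errfi1 and Klf9, where 10.3% of all transcripts showed this order. Across the 6 libraries, Ddit4 went most closely with the receptor (Pearson's r 0.89 with Nr3c1), and hardly with the other 7 (-0.13 to 0.34). The other 7 genes went with each other, from 0.75 for Sgk1 and Klf9 to 0.99 for Zbtb16 and Fkbp5. These values are descriptions over 6 libraries that share 2 rats and 3 sera. Among the 1973 other transcripts whose level spans at least 1 on the log2 scale, those most like Fkbp5 were Zbtb16 (r 0.99), Cyp26b1 (0.99) and Dock9 (0.99), and 42 exceeded 0.95. Cyp26b1, which encodes an enzyme that degrades retinoic acid, measured 1.64 and 1.66 CPM in FBS, 11.2 and 19.2 CPM in MS-, and 31.5 and 42.2 CPM in MS+. Those most like Tsc22d3 were Kif26a, Yipf2 and Rasl11b (0.99 each), and those most like Nr3c1 were LOC688765 (0.97), Glb1l (0.96) and Slc35g3 (0.96), with only 6 transcripts over 0.95.

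The other genes of the pathway were followed in 5 lists with 94 genes, of which 86 had a row in the table and 64 passed the filter. Several of them had been seen in earlier results of these data, so the lists are not independent of these libraries. In MS+ against FBS 14 of the 64 were called, 11 higher and 3 lower, where 9.61% of all transcripts were, and in MS- against FBS 15, of which 13 higher and 2 lower, where 4.81% of all were. In MS+ against MS- only 1 was called (0.0204% of all transcripts). With the block the counts were 14 in MS+ against MS- (10.1% of all transcripts), 26 in MS+ against FBS (28.2%) and 28 in MS- against FBS (20.5%). Leaving out a library of either compared group lowered the number of calls against FBS, among the list genes as among all transcripts.

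Among 10 genes for related receptors and hormone handling, 7 were tested. In each comparison with FBS 2 were called, where 9.61% of all transcripts were called in MS+ and 4.81% in MS-. These are the drug efflux pumps Abcb1a and Abcb1b, which export glucocorticoids among other substrates. Abcb1b measured 21.4 and 34.7 CPM in FBS, 117 and 167 CPM in MS-, and 190 and 229 CPM in MS+. It rose by 2.31 in MS- (SE 0.25, limma adjusted p 0.0056) and by 2.89 in MS+ (SE 0.25, limma adjusted p 0.0036) over FBS. Abcb1a rose by 1.28 in MS- (SE 0.17, limma adjusted p 0.011) and by 1.96 in MS+ (SE 0.17, limma adjusted p 0.0034). The calls of both in MS+ were lost without MS+ replicate 1, as was that of Abcb1a in MS- without FBS replicate 2 or either MS- library, at limma adjusted p 0.0508 for Abcb1b, 0.0509 for Abcb1a in MS+ and up to 0.0852 for Abcb1a in MS-. The pumps are close paralogs whose rows overlap, so the split of reads between them is uncertain. The mineralocorticoid receptor Nr3c2, which also binds corticosterone, measured 10.6 and 11.3 CPM in FBS, 15.0 and 17.0 CPM in MS-, and 11.4 and 12.3 CPM in MS+, and was called only with the block, in MS- against FBS. The same held for the progesterone receptor Pgr, at 0.72 (SE 0.23) in MS- against FBS. Between MS+ and MS- the block called both pumps, at 0.68 for Abcb1a and 0.58 for Abcb1b, where it called 10.1% of all transcripts. Hsd11b2, the enzyme that inactivates glucocorticoids, and the estrogen receptor Esr1 had at most 2 reads in any library. H6pd, which supplies the cofactor of Hsd11b1, measured 67.1 to 85.4 CPM and was not called.

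None of the 11 tested chaperones of the receptor was called in any comparison by limma without the block. With the block 1 of the 11 was called in MS+ against MS-, 3 in MS+ against FBS and 4 in MS- against FBS, where 10.1%, 28.2% and 20.5% of all transcripts were. Fkbp4, the counterpart of Fkbp5 that favours hormone binding, measured 100 and 106 CPM in FBS, 62.8 and 68.9 CPM in MS-, and 60.2 and 81.1 CPM in MS+. Its difference from FBS was -0.64 (SE 0.15, limma adjusted p 0.066) in MS- and -0.55 (SE 0.15, limma adjusted p 0.068) in MS+. With the block both differences were called, and in cells of both rats the direction was opposite to that of Fkbp5. Hsp90ab1, the main heat shock protein that holds the receptor, was -0.40 in MS- against FBS (SE 0.10, limma adjusted p 0.071) and 0.32 in MS+ against MS- (SE 0.10, limma adjusted p 0.22), both called with the block. The block also called the cyclophilin Ppid, higher than FBS by 0.65 in MS- and 0.56 in MS+, and the co-chaperone Stip1, at -0.31 in both. Of the 9 tested coregulators 0 were called without the block in any comparison. Ncoa2 alone was called with it, in MS- against FBS, at a difference of 0.52.

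The list of other induced targets held 40 genes, 28 of them tested. In MS+ against FBS 10 of the 28 were called, 7 higher and 3 lower, where 9.61% of all transcripts were called. In MS- against FBS 10 were called, 8 higher and 2 lower, where 4.81% of all transcripts were. By sign alone, called or not, 18 were higher and 10 lower in MS+, and 20 were higher and 8 lower in MS-. The largest rise was that of Angptl4, an inhibitor of lipoprotein lipase, with 0.49 and 0.50 CPM in FBS, 17.6 and 22.2 CPM in MS-, and 24.9 and 34.3 CPM in MS+. With 6 reads in FBS its ratio was 40.3 in MS- (95% exact interval 18.2 to 111) and 59.8 in MS+ (27.2 to 164). Angptl4 passed the filter only through the rat sera, where it is high, and had to differ from FBS. Pdk4, a mitochondrial kinase that inhibits pyruvate dehydrogenase, measured 1.64 and 1.82 CPM in FBS, 15.7 and 16.6 CPM in MS-, and 40.5 and 39.8 CPM in MS+. The spread between rats was small beside the differences, 2.65 (SE 0.16, limma adjusted p 0.0019) in MS- and 3.92 (SE 0.16, limma adjusted p 0.0003) in MS+. The clock gene Per1 rose by 1.49 (SE 0.12, limma adjusted p 0.0023) and 2.06 (SE 0.12, limma adjusted p 0.00093). The cell cycle inhibitor Cdkn1a rose by 1.5 (SE 0.09, limma adjusted p 0.0019) and 1.69 (SE 0.09, limma adjusted p 0.00083). The calls of Angptl4, Pdk4, Per1 and Cdkn1a held in both comparisons without any 1 library.

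Cebpb, a transcription factor of the acute phase, and Nfkbia, the inhibitor of NF-kappaB, also rose in both rat sera. Nfkbia measured 19.0 and 18.1 CPM in FBS, 30.7 and 34.4 CPM in MS-, and 52.4 and 49.6 CPM in MS+, a stepwise order like that of Tsc22d3. Its rise was 0.78 in MS- (SE 0.12, limma adjusted p 0.02) and 1.41 in MS+ (SE 0.12, limma adjusted p 0.0034), and that of Cebpb 0.84 (SE 0.12, limma adjusted p 0.012) and 1.16 (SE 0.12, limma adjusted p 0.0051). The calls in MS+ were lost without MS+ replicate 1, and those in MS- without FBS replicate 2 or either MS- library and, for Nfkbia, FBS replicate 1, at limma adjusted p of up to 0.129 for Nfkbia and 0.1 for Cebpb. Dusp1, a phosphatase that stops MAP kinases, rose in MS+ by 0.58 (SE 0.12, limma adjusted p 0.034), a call lost without any 1 library (limma adjusted p 0.0616 to 0.162). Bcl6, a transcriptional repressor, rose in MS- by 1.04 (SE 0.15, limma adjusted p 0.016), a call lost without FBS replicate 1 or either MS- library (0.0528 to 0.108). It measured 16.9 and 19.6 CPM in FBS, 34.8 and 42.5 CPM in MS-, and 24.5 and 26.2 CPM in MS+, highest in MS- like Ddit4.

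Not every induced target went up. The genes of the metallothioneins Mt1a and Mt2A, which are metal-binding proteins, fell in both rat sera. What moved the genes of this list, up or down, was not tested. Mt1a measured 28.8 and 13.3 CPM in FBS, 0.55 and 0.54 CPM in MS-, and 0.90 and 0.55 CPM in MS+. FBS exceeded MS- by 38.7 times (95% exact interval 17.5 to 106) and MS+ by 29.0 times (14.5 to 67.9). Mt2A was lower in the same way, by a ratio of 9.40 (4.56 to 22.5) and 5.78 (3.20 to 11.3). Both genes passed the filter only through FBS, where they are high, which favours a fall in the rat sera. The calls of Mt1a in MS+ were lost without MS+ replicate 1 (limma adjusted p 0.0521) and those of Mt2A without FBS replicate 1 or either library of the rat serum (0.0672 to 0.113 in MS+, 0.0918 to 0.104 in MS-).

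Txnip, an inhibitor of thioredoxin that also limits glucose uptake, was the only list gene called in MS+ against MS-. It measured 179 and 166 CPM in FBS, 259 and 321 CPM in MS-, and 99.6 and 106 CPM in MS+. The 3 groups did not overlap, and MS+ was the lowest. It fell by 1.48 from MS- to MS+ (SE 0.12, limma adjusted p 0.034). Against FBS it was higher by 0.74 in MS- (SE 0.12, limma adjusted p 0.024), while in MS+ it fell by 0.74 (SE 0.12, limma adjusted p 0.017). The call between MS+ and MS- was lost without any 1 library (limma adjusted p 0.0833 to 0.456, with differences of -1.64 to -1.33). The calls against FBS were lost without any 1 of the FBS or MS+ libraries and, for MS-, also without MS- replicate 2 (limma adjusted p 0.0559 to 0.118). With the rat as a block 9 of the 28 tested induced targets were called in MS+ against MS-, where 10.1% of all transcripts were. Txnip was 1 of the 9. Of the others, Per1, Pdk4, Nfkbia and Crispld2 were higher, and Anxa1, Foxo3, Bcl6 and Arrdc3 were lower. Of these the difference was 1.26 for Pdk4, 0.81 for Crispld2, 0.63 for Nfkbia, -0.64 for Foxo3 and -0.64 for Arrdc3. Against FBS the block also called Arrdc3 in MS+ (-0.84) and the thrombomodulin gene Thbd in MS- (-0.79).

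The list of repressed targets held 20 genes, most of them of inflammation and matrix breakdown. Of the 20 genes 9 were tested, since most of the others were near 0 in all libraries. The cytokines Il1b and Tnf were at 0 throughout, though Tnf overlaps another gene and reads shared by overlapping transcripts were dropped in counting. Without the block none was called lower, and the genes called, all against FBS, were chemokines that rose. They were 2 of the 9 in MS+ and 3 in MS-, where 9.61% and 4.81% of all transcripts were called. Ccl7 measured 1.64 and 1.16 CPM in FBS, 10.6 and 12.8 CPM in MS-, and 6.13 and 7.34 CPM in MS+, with rises of 2.41 (SE 0.22, limma adjusted p 0.0033) and 1.69 (SE 0.22, limma adjusted p 0.009). The call in MS+ was lost without either MS+ library (limma adjusted p 0.0572 and 0.0581). Cxcl1 measured 7.86 and 6.30 CPM in FBS, 30.2 and 24.8 CPM in MS-, and 84.7 and 44.6 CPM in MS+, with rises of 1.82 (SE 0.29, limma adjusted p 0.022) and 2.96 (SE 0.29, limma adjusted p 0.0051), the former lost without any 1 of the FBS or MS- libraries (limma adjusted p 0.0905 to 0.136). Ccl2 rose in MS- by 1.63 (SE 0.34, limma adjusted p 0.046), a call lost without any 1 library (limma adjusted p 0.055 to 0.221). The cytokine Il6 measured 14.2 and 9.95 CPM in FBS, 7.13 and 6.15 CPM in MS-, and 6.31 and 2.39 CPM in MS+. Its difference from FBS was -0.76 (SE 0.37, limma adjusted p 0.3) and -1.38 (SE 0.37, limma adjusted p 0.068), called in both with the block. In MS+ against MS- 2 of the 9 were called, with the block only, where 10.1% of all transcripts were. Cxcl1 was higher in MS+ by 1.46 in cells of rat 1 and 0.82 in cells of rat 2, and the cytokine Lif was at -0.77 and -0.76, with 10.8 and 10.3 CPM in FBS, 19.8 and 12.8 CPM in MS-, and 11.2 and 7.16 CPM in MS+. The intercellular adhesion gene Icam1 stayed between 101 and 124 CPM and was not called.

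**Figure D3:**
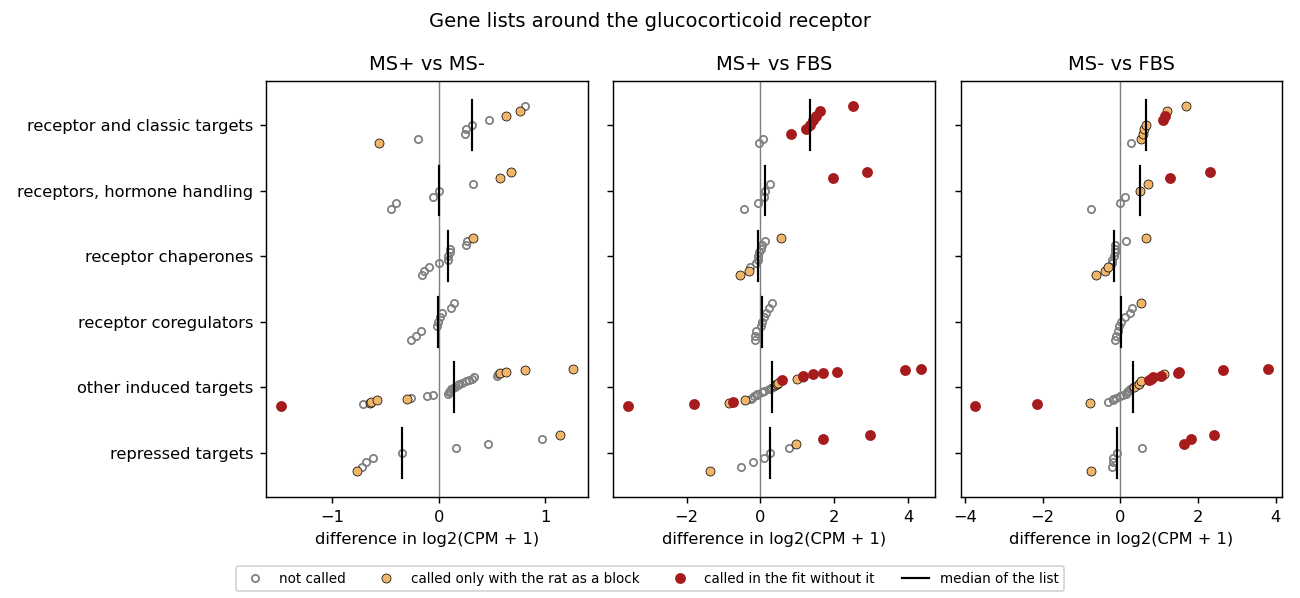
Difference in log2(CPM + 1) (horizontal axes, which differ between panels) for the 9 genes and the tested genes of 5 lists around the receptor, 1 point for each gene, with the median of each list as a vertical bar. Red points were called by limma, orange ones only with the rat as a block. Against FBS the red points lie among the 9 genes, the efflux pumps, the induced targets and the chemokines, and no red point lies among chaperones and coregulators. In MS+ against MS- the only red point is Txnip.

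**Figure D4:**
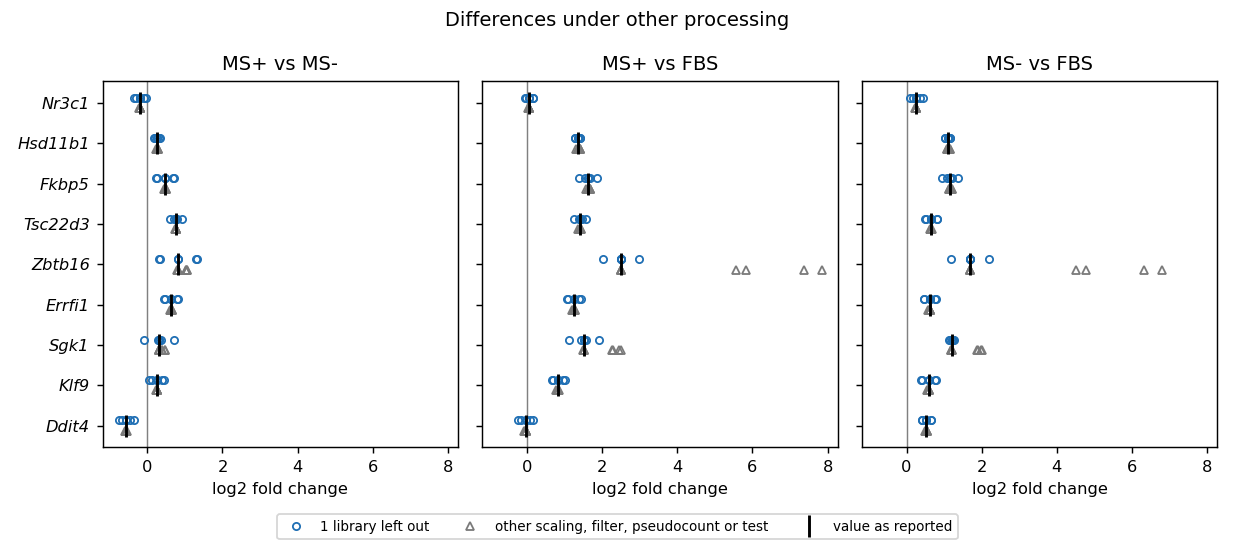
Difference between 2 sera for the 9 genes under every processing tried (horizontal axes, log2 scale), with the value as reported as a bar, fits without 1 library as circles and other scalings, filters, pseudocounts or tests as triangles. The far triangles of Zbtb16 and Sgk1 come from a smaller pseudocount or from fits on reads and depend on how values at or near 0 are handled. Only Nr3c1 and Ddit4 in MS+ against FBS and Sgk1 in MS+ against MS- have points on both sides of 0.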

How the data were processed

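Poly(A) RNA of 6 cultures, from cells of 2 rats in each of 3 sera, was sequenced. The authors aligned reads to rn4 (the submitters' processing notes name Bowtie2 2.1.0 and HTSeq 0.5.4p3), counted reads per transcript and scaled the counts by TMM-corrected library sizes. The deposited signal is therefore CPM with TMM scaling, with 17221 rows, 4567 of them at 0 throughout. Whole reads were recovered from it (100% of values whole within 1e-06 reads). On them edgeR 4.0.16 called 7, 2 and 0 of the 9 genes in MS+ against FBS, MS- against FBS and MS+ against MS-. Of all transcripts it called 944, 464 and 3 in the same order. HTSeq drops reads shared by overlapping transcripts; use of strand is not given in the sources used here. Deposited starts count from 0 and are written from 1.

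Transcripts at 1 CPM or more in both libraries of a group (9820) were tested with limma 3.58.1 in R 4.3.3 (lmFit, eBayes with trend, two-sided) on log2(CPM + 1), with all 6 libraries and serum as the only term, and Benjamini-Hochberg adjusted p under 0.05 as the call. Fold changes on this scale understate the change of low genes. The script was tested on simulated data. Per the labels and the series' design the same 2 rats supplied cells for each serum, and the differences between rats correlated across transcripts by 0.49 to 0.62 between sera, so the rat number pairs the libraries and was added as a block in a second fit. The 2 libraries of a group differed by more than sampling noise (chi-square per degree of freedom 13.6 to 15.1). Alternatives were a pseudocount of 0.1, no filter, DESeq2 1.42.0 size factors, plain library totals, edgeR, limma-voom and DESeq2 on reads, and leaving out each library.

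The 9 genes and all lists were chosen with earlier results of these data known. For each list and comparison up to 3 called rises and 3 called falls were named, with the block where needed, or else the most abundant gene; the other genes given by name were added after their values were seen, and a few genes of the lists are not reported here. Intervals and floors cover counting error only. Promoter windows and accessions came from RefSeq tables of GRCr8, and no coordinates were converted between builds.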

Additional observations from a re-analysis of the deposited data

How the results depend on the processing

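The choice that moved most counts was the rat as a block, which uses the pairing of the libraries. With this replicate block the calls over all transcripts went from 2 to 987 (MS+ against MS-), from 944 to 2773 (MS+ against FBS) and from 472 to 2011 (MS- against FBS), those among the 9 genes from 0 to 3 and from 2 to 8 (7 in MS+ against FBS either way), and those among the list genes from 1, 14 and 15 to 14, 26 and 28. Without the filter on low values, which adds transcripts to the adjustment, 0, 586 and 255 transcripts were called, 1 of the 9 genes in MS- against FBS and 0 list genes in MS+ against MS-. In MS+ against MS-, limma-voom called 4 transcripts and 2 list genes, and DESeq2 123 transcripts, 4 list genes and 1 of the 9 genes. In MS- against FBS, DESeq2 called 4 of the 9 and 535 of all transcripts. Leaving out 1 library at a time gave 0, 25 to 602 and 105 to 280 transcripts in the order above. Among the 9 genes it gave 0 to 6 in MS+ against FBS and 0 to 2 in MS- against FBS, and among the list genes 0, 5 to 13 and 7 to 15. These fits have fewer samples. The block ended no call among the genes given by name, and beside those stated above it added the calls of Dusp1 in MS- and of Bcl6 and Ccl2 in MS+ against FBS, among others. Of 1428 single-gene differences under an alternative, 1278 kept direction and side of the threshold, 50 gained and 80 lost the call, and 20, none of them called, changed sign. One was Stip1 in MS+ against MS- with plain library totals (-0.015), and the others came from leaving out a library. Their ranges over the libraries left out were, for MS+ against MS-, -0.092 to 0.72 (Sgk1), -0.13 to 0.30 (Fkbp4), -0.46 to 0.040 (Ncoa2), -0.22 to 0.031 (Ppid), -0.054 to 0.059 (Stip1) and -0.26 to 1.37 (Thbd). For MS+ against FBS they were -0.040 to 0.17 (Nr3c1), -0.24 to 0.17 (Ddit4), -0.36 to 0.030 (Foxo3), -0.50 to 0.077 (Lif), -0.10 to 0.65 (Pgr) and -1.05 to 0.57 (Thbd). For MS- against FBS they were -0.46 to 0.062 (Arrdc3) and -0.32 to 1.02 (Crispld2). The cause was not tested. Zbtb16 and Sgk1 rest on few reads, at most 38 and 31 in a library, and for Sgk1 the reads shared by overlapping transcripts were dropped in counting.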
